A study of Mus musculus with 4 samples.

Results

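The expression of 8 genes for digestive enzymes of the intestinal brush border was followed across 12 cell types of mouse duodenal crypts and between 2 genotypes. The genes were listed by symbol, and all 8 of them (Alpi, Sis, Lct, Treh, Anpep, Mep1b, Mep1a and Dpp4) were found once among the 31053 genes of the count matrices. Single-cell RNA libraries had been made from sorted TOM+ cells, marked by a red fluorescent protein made once Cre recombinase has acted, with 2 libraries per genotype. The WT libraries came from Atoh1CreER-T2; R26RTom mice. The APC-KO libraries came from mice that also carried Apcfl/fl alleles, and their own labels write the driver as Atoh1Cre, whereas the series description gives the CreER-T2 form for both. Mice of both genotypes had received 2 doses of tamoxifen 24 h apart, and crypt cells were harvested 12 h after the last. The driver uses the promoter of Atoh1, which is known for its role in secretory cells, so every cell studied belonged to a sorted population marked through that gene. The labels name neither the animal nor a batch for any library, so the p-values below measure the spread between these samples, which may be technical.

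The brush border is the carpet of microvilli on the lumen side of absorptive enterocytes. Its enzymes are anchored in the membrane and finish digestion there, splitting disaccharides into simple sugars and peptides into fragments that transporters take up. Their genes are textbook markers of enterocyte maturation, which takes place as cells leave the crypt for the villus. Lactase, sucrase-isomaltase and trehalase act on sugars, alanyl aminopeptidase, dipeptidyl peptidase 4 and the meprins act on peptides, and intestinal alkaline phosphatase removes phosphate groups.

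The authors' tables kept 4814 and 3821 cells of WT replicates 1 and 2, and 356 and 6243 cells of APC-KO replicates 1 and 2. UMIs, which tag single captured RNA molecules, were summed over the kept cells of each type and library and given as CPM, the count of a gene scaled by all UMIs of that sum. These sums came from between 5 cells (SEC-PRO of APC-KO replicate 1) and 1281 cells. APC-KO replicate 1 held 11 ENTERO-PRO, 13 ISC, 13 NON-EC and 45 EC cells, and its values are the least precise throughout. Its kept cells held 5.15% of its UMIs, against 40.4% and 37.6% in WT replicates 1 and 2 and 50.3% in APC-KO replicate 2. It had 1244480 barcodes of 1 to 50 UMIs, against 768839, 770948 and 762198 in the same order. Whether this shifted its levels was not tested. Apc, the deleted gene and a brake on Wnt signalling, stood at 87.2 and 77.9 CPM over the kept cells of WT replicates 1 and 2 and at 88.1 CPM in each APC-KO library. These 3′ counts do not check the deletion, since the labels leave the floxed exons unnamed. Any pair of libraries shared between 1 and 8 kept cell barcodes, against between 0.200 and 4.42 from chance. The level in barcodes of 1 to 50 UMIs, which hold free RNA rather than cells, was measured the same way in each library. It is printed beside the levels in cells as a reference, and a level below it does not by itself show that the cells lack the RNA. Cell type names are printed as deposited, and since they were given from the expression of these same cells, differences between types are described without a test.

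**Figure D1:**
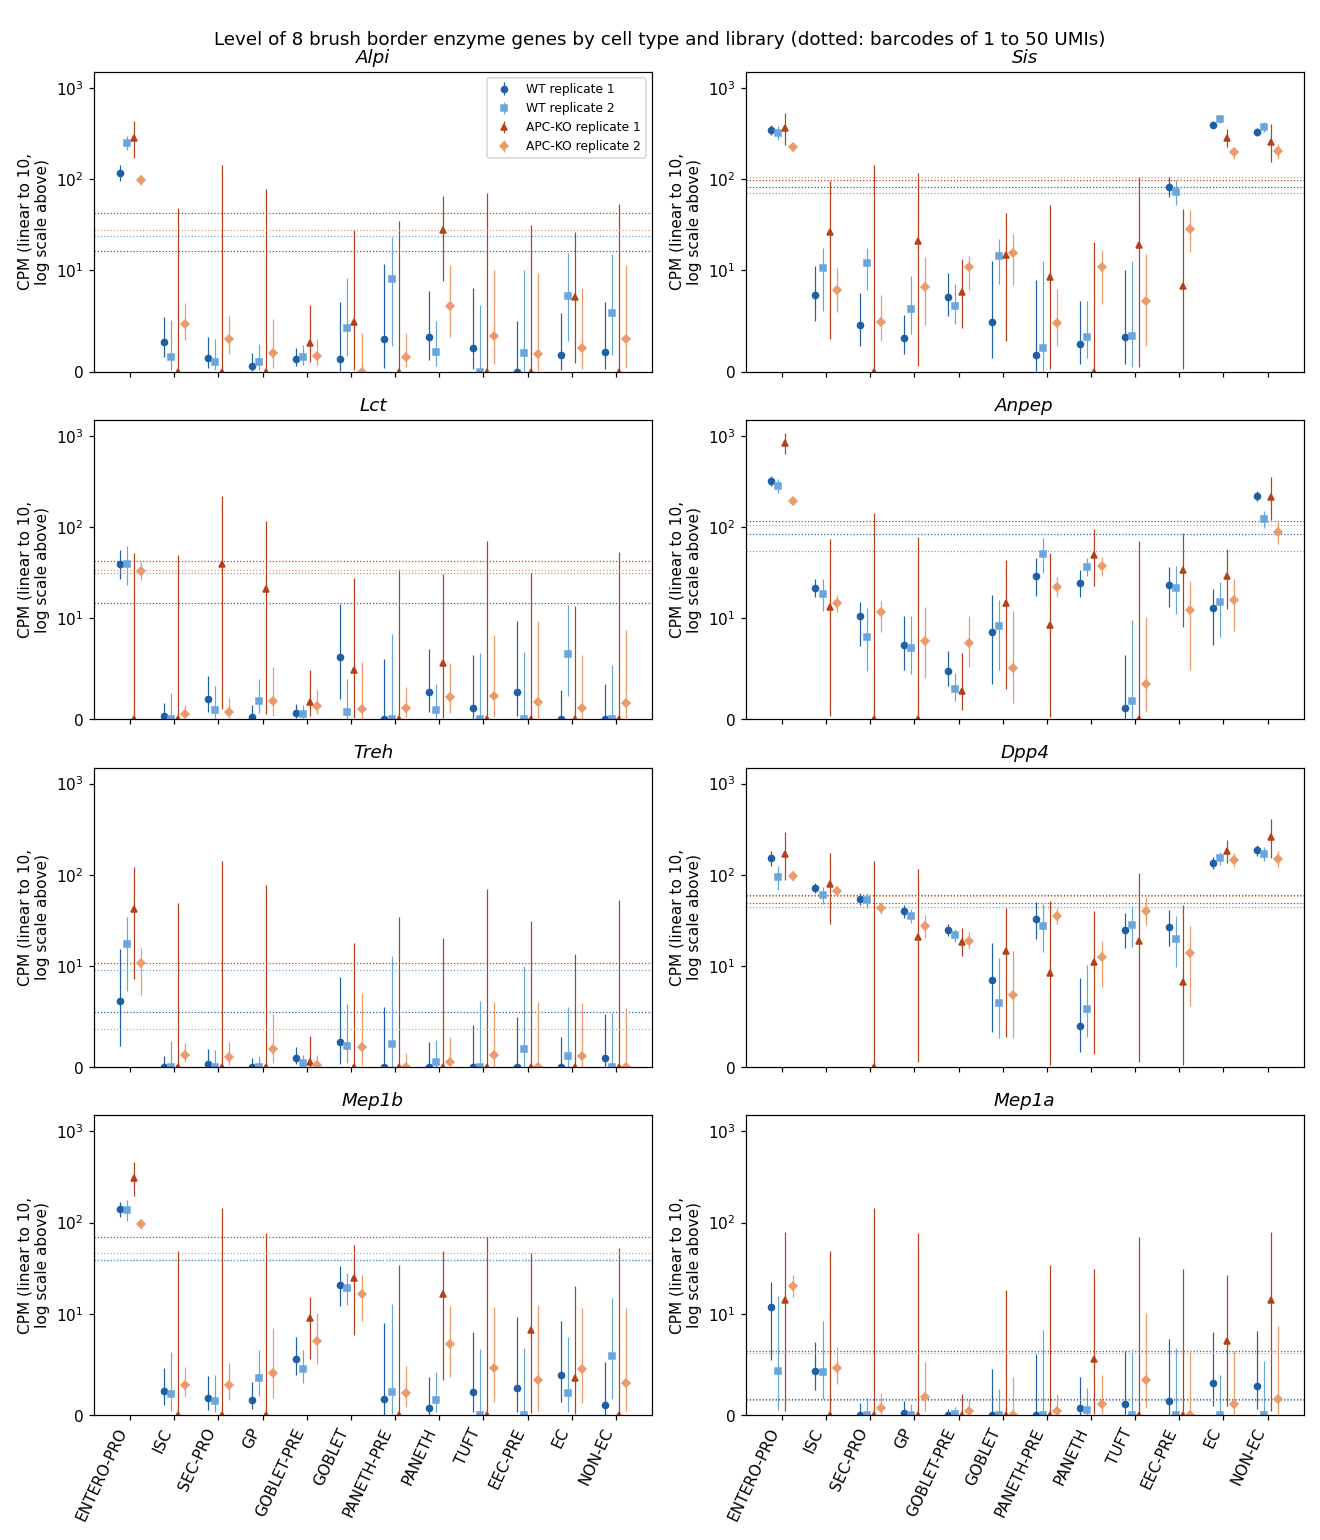
Level of each of the 8 genes (y axis, CPM, linear up to 10 and logarithmic above) in the 12 cell types (x axis) of each library, with 95% Poisson intervals that cover counting error only. Dotted lines give the level in barcodes of 1 to 50 UMIs of the same library. Alpi and Mep1b stand above the dotted lines of all 4 libraries in ENTERO-PRO, Sis in ENTERO-PRO, EC and NON-EC, and Dpp4 in those types and ISC.

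ENTERO-PRO was the type with the highest mean level over the WT libraries for 6 of the 8 genes, while Sis was highest in EC and Dpp4 in NON-EC. The name ENTERO-PRO was checked on 7 enterocyte markers, of which 6 were highest there and Krt20 was highest in GOBLET. Their summed level in ENTERO-PRO was 10364 and 11650 CPM in the libraries of WT, with 21255 and 9702 CPM in those of APC-KO. It was between 564 and 995 CPM in EC, between 2406.5 and 3947 CPM in GOBLET and between 3262 and 8583 CPM in free RNA. Among these markers, Fabp1, a fatty acid binding protein of enterocytes, had 2957 CPM ± 252 (SD, n = 2) in WT ENTERO-PRO. Endocrine markers summed to at most 107 CPM in ENTERO-PRO and to between 59634 and 77741 CPM in EC. Proliferation markers summed to between 84.3 and 287 CPM in ENTERO-PRO and to between 601 and 1069 CPM in ISC. Goblet markers summed to 25311, 19800, 2179 and 33097 CPM in ENTERO-PRO of the WT libraries and then the APC-KO libraries, so that APC-KO replicate 1 stood apart from the other libraries.

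The stretches of genome next to the start sites are shown for 4 genes with contrasting patterns, namely Sis and Dpp4, measured in endocrine and absorptive types, and Alpi and Lct, measured in ENTERO-PRO. Each line is the 250 bases before the gene's RefSeq start (GRCm38.p6), 5′ to 3′ on the gene's strand. Capitals mark matches to 4 short motifs, searched on both strands: GTTAAT for HNF1, AGATAA for the GATA family, TTTATG for the CDX family and TATAAA for the TATA box. HNF1, GATA and CDX proteins are transcription factors of the gut epithelium.
Sis (chr3:72967864-72968113, minus strand): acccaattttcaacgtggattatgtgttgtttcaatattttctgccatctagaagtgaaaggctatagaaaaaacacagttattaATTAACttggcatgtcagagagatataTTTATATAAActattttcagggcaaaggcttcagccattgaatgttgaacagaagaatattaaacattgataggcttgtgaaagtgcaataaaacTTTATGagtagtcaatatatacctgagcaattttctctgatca
Dpp4 (chr2:62412232-62412481, minus strand): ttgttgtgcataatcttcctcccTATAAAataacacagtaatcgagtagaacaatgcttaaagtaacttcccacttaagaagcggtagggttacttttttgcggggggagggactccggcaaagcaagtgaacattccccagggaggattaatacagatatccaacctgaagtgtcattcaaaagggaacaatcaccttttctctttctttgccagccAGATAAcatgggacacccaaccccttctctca
Alpi (chr1:87101607-87101856, minus strand): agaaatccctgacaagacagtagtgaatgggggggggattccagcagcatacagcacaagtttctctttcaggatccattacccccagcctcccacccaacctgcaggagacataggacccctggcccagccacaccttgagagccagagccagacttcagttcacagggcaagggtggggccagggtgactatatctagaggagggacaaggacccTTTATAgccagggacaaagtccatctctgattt
Lct (chr1:128328319-128328568, minus strand): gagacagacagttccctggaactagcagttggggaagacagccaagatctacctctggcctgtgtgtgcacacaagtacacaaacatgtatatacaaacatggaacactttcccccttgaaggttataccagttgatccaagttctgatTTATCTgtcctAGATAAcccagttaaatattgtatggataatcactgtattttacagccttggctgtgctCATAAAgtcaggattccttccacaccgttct

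In the windows of 300 bases that were searched, reaching 50 bases past the start, the HNF1 motif was found in 7.1% of 32817 RefSeq promoters outside chromosome 18, GATA in 11.2%, CDX in 11.9% and TATAAA in 13.6%. The Sis window held the HNF1 motif 165 bases before the start and the CDX motif 43 bases before it, and its TATAAA matches, 138 and 134 bases before the start on opposite strands, overlapped. The Lct window held AGATAA at 101 and 90 bases and the CDX motif at 31 bases before the start. Dpp4 had AGATAA 32 bases before its start and TATAAA 227 bases before it. Alpi had only TATAAA, 33 bases before its start and on the opposite strand. Mep1a had 1 match, the CDX motif, and Treh and Anpep had none of these letters in their windows. The Anpep window, at its RefSeq start, spanned 79848161 to 79848460 of chromosome 7. It lay inside the gene as placed by GENCODE, whose start on the minus strand, at 79861059, was not searched. Such matches describe the letters and show no binding.

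Alpi encodes intestinal alkaline phosphatase, which removes phosphate from bacterial lipopolysaccharide and nucleotides (ENSMUSG00000079440, GRCm38 chromosome 1, 87098002 to 87101606, minus strand). In ENTERO-PRO it had 117 and 249.7 CPM in WT replicates 1 and 2 and 281 and 97.2 CPM in APC-KO replicates 1 and 2. The genotypes overlapped, with the highest and the lowest library both APC-KO. These levels were 3.54 to 10.5 times the free RNA level of the same library. In the other 11 types Alpi lay below the free RNA level in all 4 libraries, and PANETH-PRE, next in order with 6.20 CPM ± 4.18 (SD, n = 2) in WT, did not stand apart from the type after it. ENTERO-PRO made up 2.41% and 1.70% of the WT cells and held 70.1% and 72.8% of the Alpi UMIs. Akp3, the close paralog of Alpi beside which reads could be shared, had 11.5 CPM ± 14.4 (SD, n = 2) in the WT ENTERO-PRO sums.

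Lct encodes lactase (ENSMUSG00000026354, chromosome 1, 128284756 to 128328318, minus strand). Its ENTERO-PRO level was 39.5 and 39.1 CPM in WT, with 0 and 33.1 CPM in APC-KO replicates 1 and 2. The APC-KO libraries were both lower. The 11 cells of APC-KO replicate 1 held 71135 UMIs, so that 3 UMIs of Lct there would come to 42.2 CPM, and its 0 is imprecise. Against free RNA, the WT libraries were at 2.73 and 1.25 times that level and APC-KO replicate 2 at 0.984 times, so Lct was above free RNA in 2 of 4 libraries. Outside ENTERO-PRO it was below the free RNA level in each library of all 11 types.

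Treh encodes trehalase (ENSMUSG00000032098, chromosome 9, 44673233 to 44686305, plus strand), and its gene overlaps Phldb1 on the other strand. It had 5, 8, 3 and 27 UMIs in ENTERO-PRO of WT replicates 1 and 2, then APC-KO replicates 1 and 2, which is 6.59, 17.4, 42.2 and 10.8 CPM. The genotypes overlapped, and every library was above its free RNA level, at 1.21 to 3.95 times it. The lower bounds of the Poisson intervals, 2.14, 7.50, 8.70 and 7.09 CPM, lay below the free RNA level in 3 libraries and above it, at 3.82 CPM, in APC-KO replicate 2.

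Mep1b and Mep1a encode the beta and alpha subunits of meprin, a metalloprotease of the brush border that cleaves peptides and proteins such as mucin. Mep1b (ENSMUSG00000024313, chromosome 18, 21061923 to 21100199, plus strand, overlapping the pseudogene Gm6378) had 139.6 and 136.8 CPM in WT ENTERO-PRO and 309.3 and 96.0 CPM in APC-KO replicates 1 and 2. The WT libraries lay together between the APC-KO libraries, all at 2.06 to 4.49 times free RNA. GOBLET came second in WT, at 21.0 and 19.1 CPM, with 24.5 and 16.3 CPM in APC-KO, each below the free RNA level. Mep1a (ENSMUSG00000023914, chromosome 17, 43474324 to 43502812, minus strand) had 11.9, 4.34, 14.1 and 20.3 CPM in ENTERO-PRO, from 9, 2, 1 and 51 UMIs, in the same order. The APC-KO levels were both higher, the first of them from a single UMI. ISC held 15, 6, 0 and 28 Mep1a UMIs at no more than 4.68 CPM. In WT the means of ENTERO-PRO, 8.10 CPM ± 5.31 (SD, n = 2), and ISC, 4.32 CPM ± 0.0852 (SD, n = 2), did not differ beyond their spread. ISC held 51.4% of the Mep1a UMIs in WT on average, and ENTERO-PRO 22.9%.

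Sis encodes sucrase-isomaltase, which splits sucrose and the branches of starch (ENSMUSG00000027790, chromosome 3, 72888557 to 72967863, minus strand). It was measured well above free RNA in 3 types. In EC, the type with the highest levels of the endocrine markers Tph1 and Chgb, it had 395 and 456 CPM in WT, with 282 and 196 CPM in APC-KO replicates 1 and 2. In NON-EC it had 329 and 372 CPM in WT, with 257 and 201 CPM in APC-KO. In ENTERO-PRO it had 349 and 321 CPM in WT, with 366 and 223 CPM in APC-KO. In EC and NON-EC both APC-KO libraries were below both WT libraries, while in ENTERO-PRO the genotypes overlapped. Over the WT libraries the mean of EC, 426 CPM ± 43.2 (SD, n = 2), stood above that of NON-EC, 350.5 CPM ± 30.6 (SD, n = 2), by more than their spread, and NON-EC and ENTERO-PRO, 335 CPM ± 19.5 (SD, n = 2), did not differ beyond theirs. EEC-PRE followed at 82.1 and 72.0 CPM in WT, with 8.41 and 28.0 CPM in APC-KO, which is 1.00 and 1.02 times free RNA in WT and below it in APC-KO.

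Of all Sis UMIs in WT replicates 1 and 2, EC held 38.6% and 42.4% and NON-EC 27.1% and 25.4%, against 20.7% and 14.7% in ENTERO-PRO. In APC-KO replicate 2, where ENTERO-PRO cells made up 7.50% of the library, ENTERO-PRO held 52.8% of them.

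**Figure D2:**
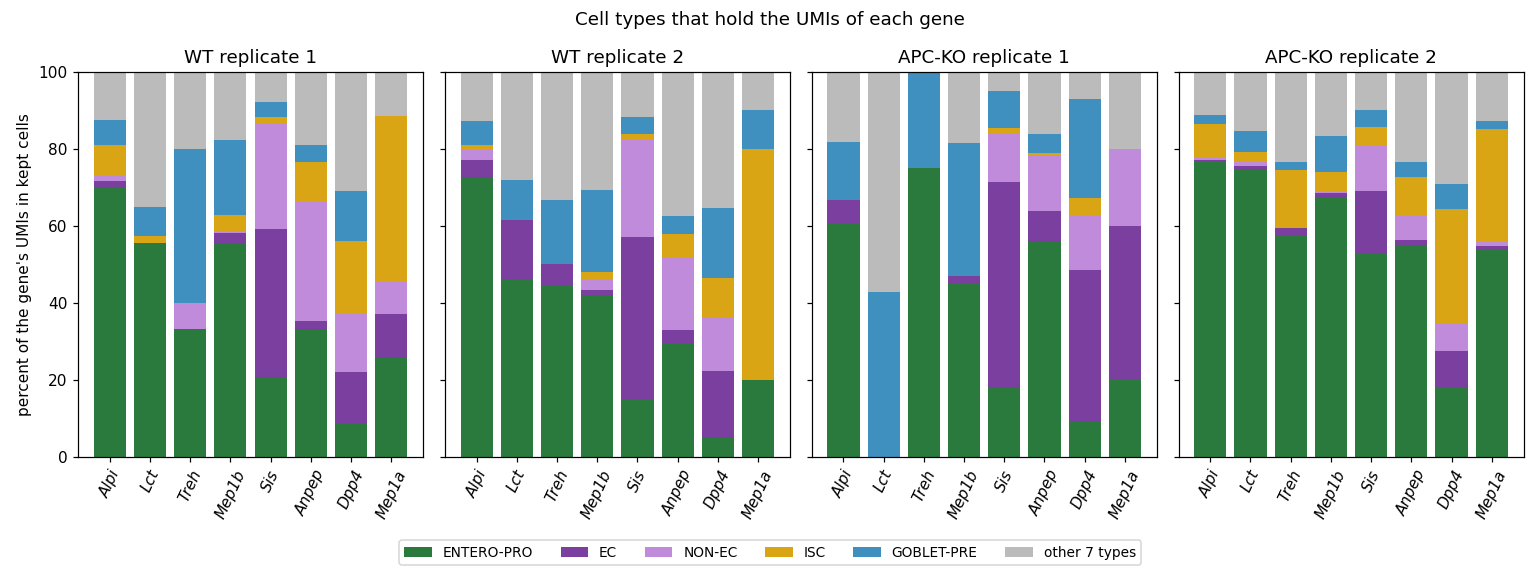
Percent of the UMIs of each gene in kept cells (y axis) that lay in ENTERO-PRO, EC, NON-EC, ISC, GOBLET-PRE and the other 7 types, for each gene (x axis) and library (panels). ENTERO-PRO holds between 60.6% and 76.5% of the Alpi UMIs, and EC and NON-EC together hold more of the Sis UMIs than ENTERO-PRO in every library but APC-KO replicate 2.

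Anpep encodes alanyl aminopeptidase, also called aminopeptidase N, which removes amino acids from the ends of peptides (ENSMUSG00000039062, chromosome 7, 79821803 to 79861059, minus strand, overlapping Gm44974 on the same strand). In ENTERO-PRO it had 321 and 284 CPM in WT, with 829 and 191 CPM in APC-KO replicates 1 and 2, so that the WT libraries again lay between the APC-KO libraries. In NON-EC it had 218 and 122 CPM in WT, with 214 and 87.2 CPM in APC-KO, above free RNA in 3 libraries and at 0.840 times in APC-KO replicate 2. In EC, by contrast, it had 12.8 and 15.0 CPM in WT, with 29.3 and 15.9 CPM in APC-KO, below free RNA in each. PANETH had 24.4 and 36.7 CPM in WT, with 49.7 and 36.9 CPM in APC-KO, also below free RNA.

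Dpp4 encodes dipeptidyl peptidase 4, which removes dipeptides from peptides with proline or alanine as the second residue and inactivates incretin hormones such as GLP-1 (ENSMUSG00000035000, chromosome 2, 62330073 to 62412231, minus strand, overlapping the antisense gene Gm13561). It was the gene of the 8 spread over the most types, above free RNA in all 4 libraries of NON-EC, EC, ENTERO-PRO and ISC. NON-EC had 186 and 170.1 CPM in WT, with 257 and 149 CPM in APC-KO. EC had 134 and 152 CPM in WT, with 183 and 147 CPM in APC-KO. ENTERO-PRO had 151 and 93.4 CPM in WT, with 169 and 96.4 CPM in APC-KO, and ISC had 71.2 and 59.6 CPM in WT, with 79.2 and 66.8 CPM in APC-KO. The genotypes overlapped in each of these types. In the order of the WT means NON-EC and EC differed beyond their spread, EC and ENTERO-PRO did not, and ENTERO-PRO and ISC did. SEC-PRO and GP followed with 53.8 and 37.7 CPM on average in WT, then PANETH-PRE, TUFT, EEC-PRE and GOBLET-PRE with 30.0, 26.7, 23.4 and 23.3 CPM, which did not differ beyond their spread from one to the next. Free RNA was at 59.6 and 44.5 CPM.

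The proportions of these genes to each other also differed between types. They are given for Sis, Anpep and Dpp4 against Mep1b, a partner chosen after its low levels in EC and NON-EC had been seen, so they are a description. In free RNA, Sis was 58.9% to 69.3% of the Sis and Mep1b UMIs, and in ENTERO-PRO 54.2% to 71.4%. In EC it was 97.7% to 99.5% and in NON-EC 98.4% to 100%, over the 4 libraries. WT replicate 1, for example, had 495 Sis and 5 Mep1b UMIs in EC, a share of 99.0% (95% exact binomial interval 97.7% to 99.7%), against 91 and 43 in free RNA, 67.9% (59.3% to 75.7%). Intervals here cover counting error only.

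Dpp4 made up 41.6% to 60.6% of the Dpp4 and Mep1b UMIs in free RNA and 35.3% to 52.0% in ENTERO-PRO, but 97.0% to 98.6% in EC, 96.7% to 100% in NON-EC and 95.7% to 100% in ISC. Such shares were not particular to types above free RNA. In WT replicates 1 and 2 the Dpp4 share was 97.1% and 97.5% in SEC-PRO, 96.3% and 90.6% in GP, 95.2% and 92.3% in PANETH-PRE and 91.7% and 100% in TUFT, against 60.6% and 53.1% in free RNA. Anpep made up 57.9% to 69.0% of its pair with Mep1b in free RNA and 95.5% to 100% in NON-EC. In PANETH, where its level lay below free RNA, Anpep was 97.3% and 96.2% of the pair in the WT libraries and 75.0% and 84.0% in APC-KO, the first of these from 9 and 3 UMIs. GOBLET went the other way, with 4 Sis and 17 Mep1b UMIs in WT replicate 1, a Sis share of 19.0% (5.45% to 41.9%), and 20 and 27 in WT replicate 2, 42.6% (28.3% to 57.8%).

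**Figure D3:**
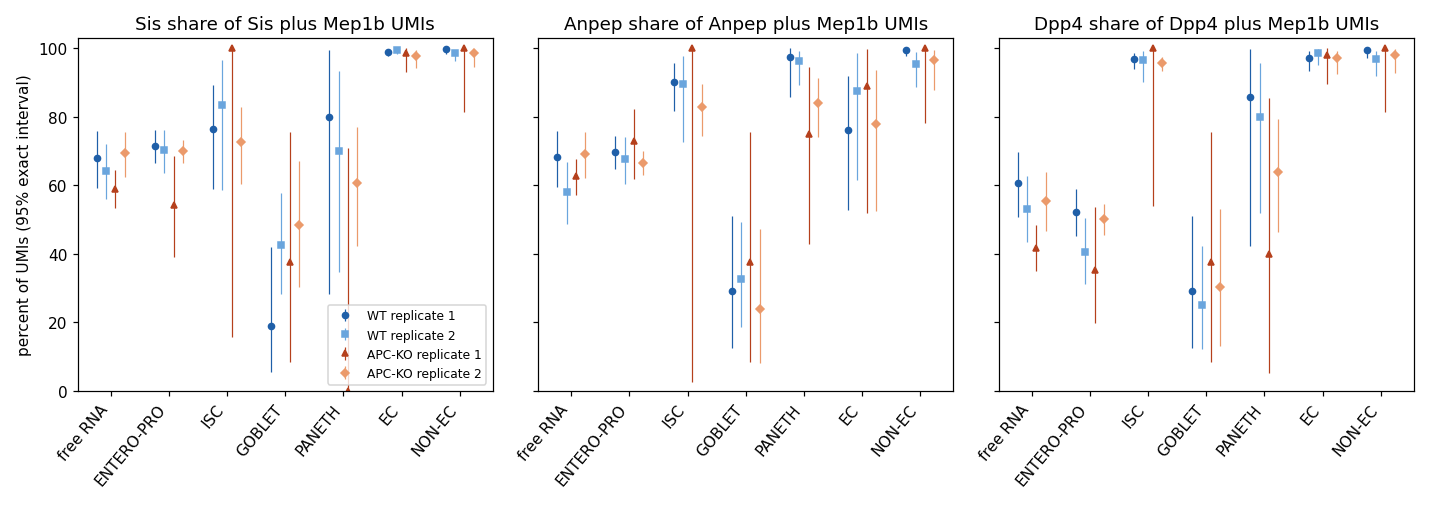
Share of Sis, Anpep or Dpp4 in the UMIs of that gene and Mep1b together (y axis, percent, with 95% exact binomial intervals) in free RNA and 6 cell types (x axis) of each library. Sis and Dpp4 in EC and NON-EC sit at 96.7% or above, and free RNA at 69.3% or below.

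Whether single cells share these genes was measured in cells thinned to 2000 UMIs, leaving out shallower cells. At that depth a Sis UMI was seen in 40.5% and 48.4% of the WT EC cells and in 33.3% and 26.1% of the APC-KO EC cells of replicates 1 and 2. NON-EC gave 38.0%, 38.3%, 30.8% and 25.6%, and ENTERO-PRO 32.2%, 35.9%, 37.5% and 23.8%, in the same order. GOBLET-PRE, a goblet type taken as the background, gave 1.66%, 1.45%, 0.549% and 2.35%. Without thinning, the EC shares were 50.4%, 60.0%, 55.6% and 29.6% at median depths of 3066, 3374, 6426 and 2413 UMIs, and the GOBLET-PRE shares were 3.36%, 3.29%, 7.61% and 3.80% at 5311, 5747, 10214 and 3996 UMIs. EC therefore had the larger share in every library, at the lower depth. Thinning left out 34, 12, 0 and 62 EC cells.

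**Figure D4:**
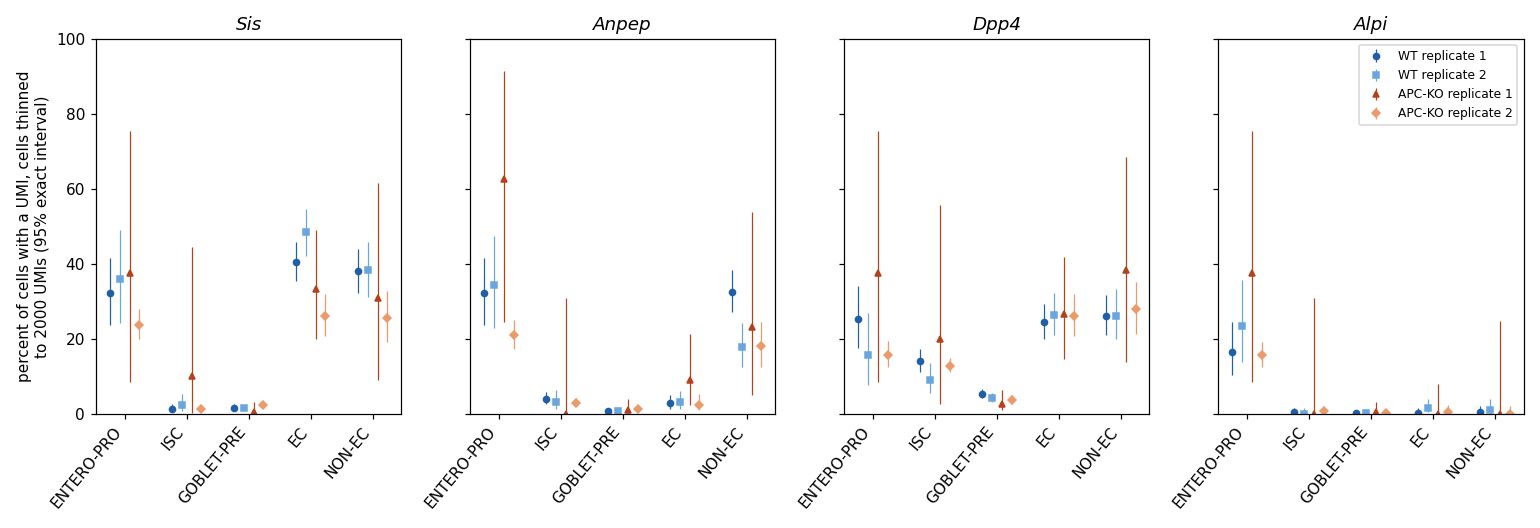
Percent of cells with at least 1 UMI of Sis, Anpep, Dpp4 or Alpi (y axis, cells thinned to 2000 UMIs, 95% exact binomial intervals) in 5 cell types (x axis) of each library. For Sis, EC, NON-EC and ENTERO-PRO lie between 23.8% and 48.4%, and GOBLET-PRE at 2.35% or below.

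Dpp4 was seen in 24.4%, 26.4%, 26.7% and 26.1% of thinned EC cells and in 26.2%, 26.1%, 38.5% and 27.9% of thinned NON-EC cells, in the order of the libraries above, and in 14.1%, 9.05%, 20% and 12.9% of ISC cells, with 5.30%, 4.19%, 2.75% and 3.75% in GOBLET-PRE. Anpep separated the endocrine types, with 32.6%, 17.8%, 23.1% and 18.0% of NON-EC cells and 2.83%, 3.1%, 8.89% and 2.41% of EC cells. Alpi was seen in 16.5%, 23.4%, 37.5% and 15.6% of ENTERO-PRO cells, the third value from 8 cells, and in at most 0.549% of GOBLET-PRE cells. Without thinning, Dpp4 was seen in 32.3%, 37.4%, 57.8% and 31.5% of EC cells, Anpep in 41.3%, 30.9%, 38.5% and 19.8% of NON-EC cells and Alpi in 31.9%, 49.2%, 54.5% and 26.7% of ENTERO-PRO cells.

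The number of these genes seen in the same cell differed between types. In WT replicates 1 and 2, 46.6% and 55.4% of ENTERO-PRO cells had UMIs of 3 or more of the 8 genes, against 1.03% and 1.48% of EC cells and 10.2% and 7.45% of NON-EC cells. In APC-KO replicate 2 the ENTERO-PRO share was 28.2%, with 31.2% of its cells holding none of the 8, and in APC-KO replicate 1 it was 72.7% of 11 cells. ENTERO-PRO had the greater depth per cell, at a median of 6680 and 7655 UMIs in WT, and the part of depth in these unthinned counts was not tested.

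ENTERO-PRO cells with and without a Sis UMI differed in other enterocyte genes. In WT replicate 1 the 63 cells with one had 4737 CPM of Fabp1 and 2535 CPM of the apolipoprotein gene Apoa1, and the 53 cells without had 630 and 93.9 CPM, at median depths of 6507 and 6859 UMIs. In APC-KO replicate 2 the 176 cells with Sis had 4588 CPM of Fabp1 and the 292 without had 882 CPM. Mki67, a gene of dividing cells, had 25.2 CPM in the cells with Sis and 110.5 CPM in the cells without in WT replicate 1, but 80.0 and 75.4 CPM in WT replicate 2.

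EC cells were split in the same way. Fabp1 was at 77.2 CPM in the 195 EC cells with Sis and at 77.7 CPM in the 192 without in WT replicate 1, at 46.3 against 11.4 CPM in WT replicate 2, and at 203 against 132 CPM and 61.6 against 51.7 CPM in APC-KO replicates 1 and 2. Apoa1 was higher in the cells with Sis in 3 of 4 libraries, at 80.3 against 46.3 CPM and 194 against 54.0 CPM in WT and 119 against 69.5 CPM in APC-KO replicate 2, and lower in APC-KO replicate 1, at 13.1 against 82.8 CPM. Tph1, which encodes the rate-limiting enzyme of serotonin synthesis, was at 2081 and 2097 CPM in cells with and without Sis of WT replicate 1, at depths of 3210 and 2916 UMIs, and at 1890 and 1826 CPM in WT replicate 2. Chgb, a granin of endocrine granules, was lower in EC cells with Sis in all 4 libraries, at 55418 against 66200 CPM and 51311 against 60298 CPM in WT replicates 1 and 2 and at 61392 against 71433 CPM and 43096 against 52016 CPM in the APC-KO libraries. In NON-EC the cells with Sis had more Chgb than those without, at 13233 against 4785 CPM in WT replicate 1 and 8444 against 5151 CPM in WT replicate 2. For Anpep in NON-EC the order was the opposite, with Chgb at 5958 CPM in the cells with Anpep and 11407 CPM in those without in WT replicate 1, and at 3789 and 8368 CPM in WT replicate 2. These splits use the cells of 1 library and carry no test. Blood and stroma markers summed to between 25.6 and 34.3 CPM in EC, against between 127 and 367 CPM in free RNA. In EC, Col1a1, Col3a1 and Hba-a1 were at 0 in all 4 libraries. Pecam1, of the same list, went the other way. It was above 0 in EC of all 4 libraries and had its highest WT mean there. In EC of APC-KO replicate 1 no other marker of the list was above 0. In free RNA Pecam1 was at 0 in both WT libraries and in APC-KO replicate 2.

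The levels of the 8 genes over the 24 WT sums (12 types in 2 libraries, as log2(CPM + 1)) followed the same division in part. Pearson's r was 0.82 for Alpi and Treh, 0.78 for Alpi and Mep1b and 0.73 for Alpi and Lct, and 0.70 for Sis and Dpp4, whereas Alpi and Dpp4 gave 0.34. Anpep gave 0.71 with Alpi and 0.60 with Sis, but 0.41 with Lct, and Alpi and Sis gave 0.48. The Treh value rests on 33 UMIs. The sums share libraries and differ in depth and number of cells, and these values are a description. Among 9268 genes, those most like Alpi were S100g (0.90), Ggt1 and Reg1, and those most like Mep1b were Apoa4 (0.89), Chp2 and Slc51b. Lct was nearest to Spink1 (0.84), Ggt1 and Ifit1bl2. Anpep was nearest to Slc5a1 (0.82), the sodium-coupled glucose transporter, and then to Enpep, another aminopeptidase. Sis was nearest to Akr1c19 (0.93), Dpyd and Reep6, and Dpp4 to Eea1 (0.94), Rps6ka3 and Rps6ka1. Treh and Mep1a, with 33 and 45 UMIs in the kept WT cells, were under the 50 UMIs asked for.

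Other genes of the brush border divided in a similar way. Of 16 further hydrolases, 12 had their highest WT mean in ENTERO-PRO, led by Mgam (maltase-glucoamylase), Enpep (glutamyl aminopeptidase) and Mme (neprilysin) at 229 CPM ± 0.820, 159 CPM ± 7.39 and 128 CPM ± 2.72 (SD, n = 2). Mgam was also at 135 and 131 CPM in ISC of the WT libraries. Of 8 nutrient transporters 6 were highest in ENTERO-PRO, with Slc5a1 at 171 CPM ± 20.8, Slc7a9 at 72.7 CPM ± 7.78 and Slc7a7 at 56.1 CPM ± 6.67 (SD, n = 2). The scaffold of the microvilli was different. Only 1 of 11 structural genes, the myosin gene Myo1a (287 CPM ± 12.3, SD, n = 2), was highest in ENTERO-PRO, and Vil1 (villin, 369 CPM ± 67.0, SD, n = 2) and Cdhr5 (233 CPM ± 15.7, SD, n = 2) were higher in TUFT and GOBLET. Of 12 transcription factors of enterocytes 4 were highest in ENTERO-PRO, among them Klf5 at 569 CPM ± 36.1 and Hnf4g at 198 CPM ± 16.0 (SD, n = 2), while Hnf4a, at 173 CPM ± 14.3 (SD, n = 2), was highest in ISC.

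The genotypes were first compared over all kept cells, to ask whether the sorted population as a whole differed in these genes. Mep1b had 7.74 and 7.14 CPM in WT, with 16.3 and 13.1 CPM in APC-KO replicates 1 and 2, and Alpi had 5.15 and 7.52 CPM in WT, with 11.0 and 11.7 CPM in APC-KO. Treh went from 0.608 and 0.857 to 1.33 and 1.72 CPM, Mep1a from 1.42 and 0.476 to 1.66 and 3.48 CPM, and Lct from 2.19 and 1.86 to 2.33 and 4.07 CPM. Anpep had 29.8 and 21.0 CPM in WT, with 34.9 and 32.0 CPM in APC-KO. In these 6 genes both APC-KO libraries were above both WT libraries. Sis, at 52.0 and 48.0 CPM in WT, with 47.8 and 38.9 CPM in APC-KO, was lower without overlap, and Dpp4 had 52.2 and 39.6 CPM in WT, with 42.5 and 49.3 CPM in APC-KO, which overlapped. Such non-overlap held for 7 of the 8 genes and for 34.5% of the 13345 genes tested.

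None of the 8 genes passed the threshold in this comparison by edgeR (0% of all genes tested were called), and DESeq2 called none of them. An unadjusted p under 0.05 was given to 4 of the 8 by edgeR, as to 3.71% of all genes. That number was 0 of 8 without ENTERO-PRO cells, where 413 of 13275 genes had one. It was 2 of 8 by the DESeq2 Wald test (323 of 13345 genes) and 2 of 8 with the replicate block (256 of 13345 genes). The log2 fold changes, APC-KO over WT, were 1.05 (SE 0.25) for Mep1b, 0.93 (SE 0.28) for Alpi, 1.19 (SE 0.42) for Treh and 1.64 (SE 0.62) for Mep1a, each with an adjusted p of 1.00 by edgeR. They were 0.83 (SE 0.35) for Lct, 0.48 (SE 0.23) for Anpep, 0.09 (SE 0.19) for Dpp4 and -0.12 (SE 0.21) for Sis. Without APC-KO replicate 2 the value was 0.40 for Lct and 0.98 for Mep1a, without WT replicates 1 and 2 in turn it was 2.56 and 1.02 for Mep1a and 0.75 and 0.26 for Anpep, and in cells thinned to 2000 UMIs it was 2.95 for Mep1a and 1.41 for Alpi. The median over the 8 was 0.88, against 0.01 over all genes tested, and 0.81 over the 15 further hydrolases and 1.12 over the 7 enterocyte markers, none of which passed.

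Cells of an absorptive type and RNA per cell both enter a sum over all cells. ENTERO-PRO made up 2.41% and 1.70% of the WT cells and 3.09% and 7.50% of the APC-KO cells, and the Fabp1 level of free RNA was 614 and 535 CPM in WT, with 2493 and 673 CPM in APC-KO. With ENTERO-PRO cells left out of every library, the log2 fold change was 0.83 for Mep1b, 1.01 for Alpi, 0.69 for Treh, 1.20 for Mep1a and 0.60 for Lct, and that of Anpep was -0.09. With free RNA subtracted at 5% of each sum over all cells, 7 of the 8 log2 fold changes were above 0. An unadjusted p under 0.05 was given to 4 of the 8 there by edgeR, and to 468 of 13226 genes. The share of free RNA in the cells was not measured, and its part in these values was not tested.

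**Figure D5:**
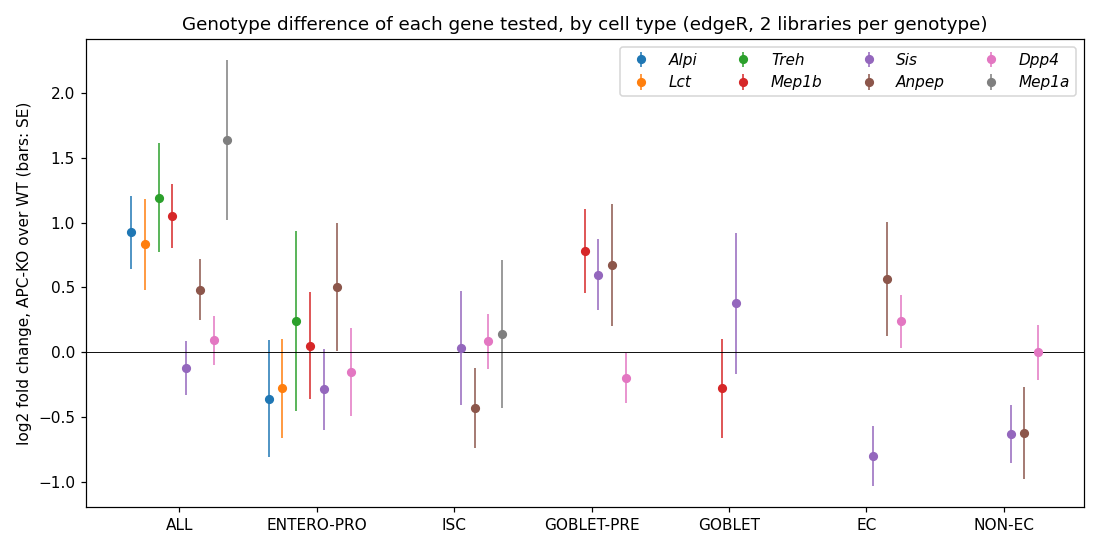
Log2 fold change of each gene tested, APC-KO over WT (y axis, points, with bars of 1 SE), in the sum of all kept cells and in 6 cell types (x axis), by edgeR with 2 libraries per genotype. Over all cells 7 of 8 points lie above 0, in ENTERO-PRO 3 of 7 do, and none passed the threshold.

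Within ENTERO-PRO, 7 of the 8 genes had enough UMIs to be tested, all but Mep1a. None of them was called by edgeR (0.0788% of 6348 genes were) or by DESeq2, and none had an unadjusted p under 0.05, against 7.62% of all genes. The log2 fold changes by edgeR were -0.36 (SE 0.45) for Alpi, -0.28 (SE 0.31) for Sis, -0.28 (SE 0.38) for Lct, 0.24 (SE 0.70) for Treh, 0.50 (SE 0.49) for Anpep, 0.05 (SE 0.41) for Mep1b and -0.15 (SE 0.34) for Dpp4. Their median was -0.15, against 0.02 over all genes. Only Lct did not overlap between the genotypes, 1 of 7, where 33.9% of all genes did not.

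For Alpi and Anpep the APC-KO libraries, with 11 and 468 such cells, gave opposite directions. Without APC-KO replicate 1, Alpi was at -0.83 on the log2 scale (edgeR, adjusted p 0.0335) and passed the threshold, and Anpep had -0.64 (adjusted p 0.153, edgeR). Without APC-KO replicate 2 instead, Anpep had 1.43 (adjusted p 0.00106, edgeR) and passed in the other direction, and Alpi had 0.65 (adjusted p 0.619, edgeR). The summed level of enterocyte markers differed between these libraries too, at 21255 CPM in APC-KO replicate 1 and 9702 CPM in APC-KO replicate 2, and stem markers summed to 70.3 and 254.5 CPM there, against 108 and 65.1 CPM in WT. Their part in the differences was not tested. Lct stayed negative, at -0.22 without APC-KO replicate 1, and at a fitted -7.09 without APC-KO replicate 2, which is no measure of size because the remaining APC-KO library was at 0.

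In ENTERO-PRO no gene of the other brush border lists passed either. Of the further hydrolases 10 of 16 were tested, with a median log2 fold change of 0.42, and Mgam had 0.56 (SE 0.30), Enpep 0.20 (SE 0.39) and Mme -0.10 (SE 0.32). All 11 structural genes were tested, with a median of 0.26 and Vil1 at 0.18 (SE 0.31), Myo1a at 0.11 (SE 0.31) and Cdhr5 at 0.41 (SE 0.29). Of the transporters 7 of 8 were tested, with a median of -0.08 and Slc5a1 at -0.15 (SE 0.33), Slc7a9 at -0.28 (SE 0.53) and Slc7a7 at -0.08 (SE 0.41). Of the transcription factors 10 of 12 were tested, with a median of 0.01 and Klf5 at -0.13 (SE 0.29), Hnf4g at 0.34 (SE 0.34) and Hnf4a at 0.28 (SE 0.29). The median over all genes was 0.02.

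In EC, where Sis was highest, 3 of the 8 genes were tested and none was called by edgeR (0% of 8690 genes were). DESeq2 gave an adjusted p to Sis and Dpp4 only and called neither. The log2 fold change of Sis was -0.80 (SE 0.23, unadjusted p 0.00595, adjusted p 0.414, edgeR), those of Anpep and Dpp4 0.56 (SE 0.44) and 0.24 (SE 0.20). Sis was thus 1 of 3 genes with an unadjusted p under 0.05, where 8.39% of all genes had one (0 of 3 without WT replicate 2), and the genotypes did not overlap for 2 of the 3, against 38.9% of all genes. Over the alternatives run, the Sis value stayed between -1.07 and -0.51 with adjusted p from 5.1e-04 to 0.999. It passed the threshold, at -1.07, without APC-KO replicate 1, and, at -0.85 (adjusted p 0.0351, edgeR), without the filter on low counts. In free RNA Sis was at 82.2 and 70.5 CPM in WT, with 98.8 and 105.3 CPM in APC-KO. With free RNA subtracted at 5% of each EC sum, 1 of the 3 genes had an unadjusted p under 0.05 by edgeR, as did 711 of 8571 genes. The share of free RNA in EC was not measured, and its part in the EC values was not tested. Goblet markers summed to 6407 and 4894 CPM in EC of WT and 3704 and 12091 CPM in APC-KO, and their part was not tested.

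NON-EC was compared after its levels had been seen. Of the 3 genes tested none was called by edgeR, against 0.113% of 7959 genes, or by DESeq2. Sis had a log2 fold change of -0.63 (SE 0.23, unadjusted p 0.0140, adjusted p 0.377, edgeR), Anpep -0.62 (SE 0.35) and Dpp4 -0.00055 (SE 0.21). Sis was the 1 of 3 with an unadjusted p under 0.05 (8.9% of all genes), which none had without WT replicate 1 or APC-KO replicate 2, and the 1 of 3 without overlap (39.3%). Without APC-KO replicate 1, which had 13 NON-EC cells, Anpep passed at -0.91 (adjusted p 0.0123, edgeR). With APC-KO replicate 2 left out instead, it was 0.27 (adjusted p 0.917, edgeR). Goblet markers summed to 9192 and 7197 CPM in NON-EC of WT replicates 1 and 2, and to 3842 and 21453 CPM of APC-KO replicates 1 and 2. Their part in the Anpep value was not tested.

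In ISC 4 of the 8 genes were tested and edgeR called none, while it called 3.57% of 9792 genes. Dpp4 had a log2 fold change of 0.09 (SE 0.21), Sis 0.03 (SE 0.44), Anpep -0.43 (SE 0.31) and Mep1a 0.14 (SE 0.57). No unadjusted p was under 0.05 (12.2% of all genes), and Anpep was the 1 of 4 without overlap (38.2%). DESeq2 gave no adjusted p to any of the 4, nor to 9302 of the 9792 genes, and so could call none. Enterocyte markers did pass there: 3 of 7 rose, namely Fabp1 by 0.86 (SE 0.23, adjusted p 0.00845), Apoa1 by 1.12 (SE 0.28, adjusted p 0.00458) and Apoa4 by 1.59 (SE 0.37, adjusted p 0.00177) on the log2 scale by edgeR. Fabp1 was at 87.0 and 73.1 CPM in ISC of WT and 251 and 126 CPM in APC-KO replicates 1 and 2, below the free RNA level of each library, and Apoa1 and Apoa4 were at most 35.6 and 19.4 CPM. All 5 Paneth markers fell in ISC, with a median log2 fold change of -1.59. Their summed level in ISC was 3396 and 3059 CPM in WT, with 435 and 1728 CPM in APC-KO. In free RNA it was 23410 and 37605 CPM in WT, with 10984 and 20877 CPM in APC-KO. The part of free RNA in this fall was not tested.

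The levels of these genes were low in the goblet types. GOBLET-PRE, with 26.6% and 32.6% of the WT cells, still held 15.6% of the Dpp4 and 20.4% of the Mep1b UMIs in WT on average. In GOBLET-PRE 4 genes were tested and none was called by edgeR, where 0.00974% of 10272 genes were, or by DESeq2. Mep1b had 5.56 and 4.58 CPM in WT, with 9.54 and 7.29 CPM in APC-KO. Its log2 fold change was 0.78 (SE 0.32, unadjusted p 0.0439, adjusted p 0.618, edgeR), and it was the 1 of 4 with an unadjusted p under 0.05 (7.95% of all genes). Sis, with 7.36 and 6.45 CPM in WT against 7.86 and 10.8 CPM in APC-KO, gave 0.60 (SE 0.27), Anpep 0.67 (SE 0.47) and Dpp4 -0.20 (SE 0.19). In cells thinned to 2000 UMIs the Mep1b value was 0.088, and none of the 4 had an unadjusted p under 0.05, against 879 of 9102 genes. The genotypes did not overlap for 3 of the 4, against 41.8% of all genes. Each of these levels lay below the free RNA level. In GOBLET 2 genes were tested and none was called by edgeR, against 0.0837% of 5974 genes, or by DESeq2. Sis gave 0.38 (SE 0.54) and Mep1b -0.28 (SE 0.38), neither with an unadjusted p under 0.05 (11.2% of all genes), and 1 of the 2 did not overlap (44%).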

How the data were processed

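The matrices deposited by the authors hold UMI counts per gene and barcode (10x 3′ v3.1 chemistry, per the labels' protocols), and the file headers give software version 3.0.2. The submitters' processing notes name Cell Ranger 3.0.2, STAR and the mm10 build, with no role. The tables deposited by the authors give each kept cell its UMI and gene counts, the mitochondrial percent of its UMIs and 1 of 12 type names. How cells were filtered, named or cleared of doublets was not given in the sources used here, and no doublet caller was run. Kept cells held 24677647, 21003179, 3009636 and 27285079 UMIs in the WT libraries, then the APC-KO libraries, by number.

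UMI counts were summed per library and type. Free RNA was the sum of barcodes with 1 to 50 UMIs, and Poisson and exact binomial intervals are at 95%. Sums with at least 10 cells in every library entered edgeR 4.0.16 under R 4.3.3 (TMM, filterByExpr, quasi-likelihood test, Benjamini-Hochberg adjustment over all genes tested, threshold 0.05, 2 libraries per genotype). Alternatives were DESeq2 1.42.0 (size factors or Wald test), no filter, a replicate block, each library left out, cells thinned to 2000 UMIs, free RNA subtracted at 5% of each sum, and free RNA from barcodes of 1 to 10 UMIs. A crossed block and the NON-EC comparison were chosen after seeing the data. The main edgeR fit of each comparison was also run on simulated counts, and the outcome is not given. The 8 genes and the other lists were chosen with earlier results of these data known. Named were the 8 genes, the called genes and the 3 highest in WT ENTERO-PRO of each other brush border list, and the 3 genes most like each of the 8, of which 1 is not reported here. Gene positions came from GENCODE vM21 (GRCm38), which held 30934 of the 31053 IDs, and promoters from RefSeq. Promoters of chromosome 18, and so of Mep1b, were not used here.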

Additional observations from a re-analysis of the deposited data

Results flagged for a closer look

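The log2 fold change between the genotypes, APC-KO over WT, had opposite signs in pairs of cell types, with every APC-KO library on one side of every WT library in one type and on the other side in the other. For Sis it was 0.60 in GOBLET-PRE and -0.80 in EC, a difference of 1.40, and -0.63 in NON-EC, a difference of 1.23. For Sis in GOBLET, at 0.38, the difference was 1.18 from EC and 1.01 from NON-EC. For Anpep it was 0.56 in EC and -0.43 in ISC, a difference of 0.997. None of these differences was tested. The pairs were picked for not overlapping between the genotypes in each type. Of all genes tested, 38.2% did not overlap in ISC, 38.9% in EC, 39.3% in NON-EC, 41.8% in GOBLET-PRE and 44% in GOBLET. In APC-KO replicate 1 the level of Sis in GOBLET came from 3 UMIs and that of Anpep in ISC from 1 UMI. In GOBLET-PRE and GOBLET the Sis level lay below free RNA in every library, and so did that of Anpep in EC and ISC.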

How the results depend on the processing

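The count of the 8 genes called was 0 in every setting run except in ENTERO-PRO (1 without APC-KO replicate 1, 1 without APC-KO replicate 2, range 0 to 1), EC (1 without the filter, range 0 to 1 with a library left out) and NON-EC (range 0 to 1). Their log2 fold changes kept direction and side of the threshold in 278 alternatives, changed sign in 32 and newly passed in 5. With a library left out, the count over all genes ranged from 0 to 483 in the sum of all cells, from 2 to 392 in ENTERO-PRO, from 29 to 786 in ISC, from 7 to 64 in GOBLET-PRE, from 0 to 21 in GOBLET, from 0 to 405 in EC and from 13 to 344 in NON-EC, against 0, 5, 350, 1, 5, 0 and 9 with all libraries. The highest count came without APC-KO replicate 1, except in GOBLET-PRE, where it came without WT replicate 1. With 1 library in an arm, that library is assumed to vary like the others. With no filter on low counts the number was 21 over all cells, 80 in ENTERO-PRO, 280 in GOBLET-PRE, 79 in GOBLET, 174 in EC and 141 in NON-EC. The DESeq2 Wald test gave 23 over all cells, 16 in ISC, 38 in GOBLET-PRE, 13 in EC and 3 in NON-EC, and DESeq2 size factors gave 8 in ENTERO-PRO. The Wald test left 9302 of 9792 genes in ISC, all members tested among them, and 6907 of 8690 in EC without an adjusted p, so its 0 for the members in ISC says nothing. Thinned cells gave 17 in ENTERO-PRO, 128 in ISC, 15 in GOBLET-PRE, 4 in EC and 5 in NON-EC. With free RNA subtracted the count was 3 in ENTERO-PRO and GOBLET, 0 in GOBLET-PRE (787 at an unadjusted p under 0.05 by edgeR) and 1 in NON-EC.

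The replicate numbers showed no pairing of the libraries. For each gene, replicate 1 minus replicate 2 in log2 CPM was taken within each genotype. The correlation of these differences between the genotypes was -0.23 over all cells and between -0.049 and 0.025 in the types. With the replicate block the count was 4 over all cells, 3 in ENTERO-PRO, 76 in ISC, 110 in GOBLET-PRE, 73 in GOBLET and 3 in NON-EC, and Dpp4 had 0.14 in ENTERO-PRO and 0.13 in NON-EC and Sis -0.063 in ISC. The crossed replicate block called 1 gene over all cells.

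The log2 fold change changed sign with a library left out for Sis (-0.35 to 0.14) and Dpp4 (-0.089 to 0.29) over all cells. In ENTERO-PRO it did for Alpi (-0.83 to 0.65), Sis (-0.56 to 0.10), Treh (-0.21 to 1.90), Anpep (-0.64 to 1.43), Mep1b (-0.50 to 1.14) and Dpp4 (-0.42 to 0.40), in ISC for Sis (-0.23 to 1.56) and Dpp4 (-0.028 to 0.30), in GOBLET-PRE for Anpep (-0.31 to 1.06), in GOBLET for Sis (-0.088 to 1.47) and Mep1b (-0.39 to 0.046), and in NON-EC for Anpep (-0.91 to 0.27) and Dpp4 (-0.16 to 0.50). It also did in ENTERO-PRO for Anpep in thinned cells (-0.32), Mep1b with no filter (-0.0074) and Dpp4 by the DESeq2 Wald test (0.028), in ISC for Mep1a by that test (-0.10) and Sis with free RNA subtracted (-0.51), and over all cells for Anpep without ENTERO-PRO cells (-0.089). In NON-EC, where Dpp4 was near 0, it was 0.16 by the DESeq2 Wald test, 0.013 with its size factors and 0.0018 with free RNA subtracted. The cause of these changes was not tested.

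Thinning changed the share of WT UMIs in ENTERO-PRO from 71.4% to 63.5% for Alpi, 31.4% to 27.0% for Anpep, 17.7% to 10.9% for Sis and 38.9% to 29.8% for Treh, and gave no value for Mep1a. With all UMIs, a UMI was seen in 40.6% of WT ENTERO-PRO cells for Alpi, 57.4% for Anpep, 43.6% for Dpp4, 8.93% for Lct, 5.42% for Mep1a, 37.7% for Mep1b, 56.4% for Sis and 5.57% for Treh. Free RNA from barcodes of 1 to 10 UMIs gave 108 CPM of Sis in APC-KO, against 102. Depth limits Treh and Mep1a most, and any difference in APC-KO replicate 1.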
